A study of Mus musculus with 18 samples.

Results

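Binding by C/EBP factors and PU.1 was examined at 9 genes of lysosomal proteases: Ctsa, Ctsb, Ctsc, Ctsd, Ctsh, Ctsk, Ctss, Ctsz and Lgmn. They were chosen by name, out of 22225 protein-coding genes of the annotation (GENCODE vM1 on the mouse build mm9), and all 9 symbols were found in it. Each locus was the gene span with 20 kb on either side, from 48.2 kb (Ctsa) to 85.7 kb (Lgmn) long. The 9 loci held 106 binding sites, of 122776 in the genome.

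All 18 ChIP-seq libraries came from C10 cells, 1 line derived from the HAFTL mouse pre-B cell line, which carries C/EBPα fused to the hormone-binding part of the estrogen receptor and to GFP. β-estradiol (β-Est) moves the fusion into the nucleus, and with IL-3 and CSF-1 the cells turn into macrophage-like cells (induced macrophages, iMΦ, at 48 hpi, hours post-induction), whereas the uninduced control (0 hpi) received the solvent, ethanol. C/EBPα was profiled at 0 hpi, at 10, 30 and 60 min, and at 3, 12, 24 and 48 hpi. PU.1 and C/EBPβ were profiled at 0, 3, 12, 24 and 48 hpi. Each combination of factor and time had 1 deposited library, so that no test between libraries could be made, and the 95% intervals below (exact Poisson, given as a range after a value) cover counting error only. The study's peak table names its PU.1 input of 0 hpi as merged, and whether that library pools replicates is not given in the sources used here. Every PU.1 ratio of 48 over 0 hpi rests on it.

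The C/EBPα libraries held 5970869 to 24917810 reads, the C/EBPβ libraries 2903580 to 5844202 and the PU.1 libraries 6575348 to 11349746. Within 1000 bp of their own regions lay 0.914% to 11.6% of the C/EBPα reads, 0.471% to 10.2% of the C/EBPβ reads and up to 33.2% of the PU.1 reads. The C/EBPα libraries of 10, 30 and 60 min came from another sequencer (HiSeq2000) and had longer reads than the others, and time and sequencer cannot be told apart there. Regions were called in each library, and regions of all libraries whose neighbouring centres lay within 200 bp were joined into 1 site. The value of a site is the number of reads in the 200 bp around its centre, per 10000000 reads of the library (normalised reads). Sites are named by the gene and the distance of the centre from its transcription start site (TSS), negative meaning upstream. The files hold binding and not expression, and values of different antibodies are not on 1 scale.

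Cathepsins and legumain are made as inactive precursors, sorted to endosomes and lysosomes, and activated at low pH. In macrophages they degrade engulfed material and cut antigens and the invariant chain for display on MHC class II. C/EBPα and C/EBPβ bind the same palindromic sequence as dimers, and PU.1 is an ETS factor of B cells and macrophages that recognizes a GGAA core.

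The sequences below show how the sites of both kinds of factor are laid out on the DNA, from paired C/EBP and PU.1 matches (Ctsd, Ctsc) to single ones. Each is 200 bases of mm9, plus strand, around the centre of a site. Capitals mark TTGCNNAA (a C/EBP consensus) and GAGGAAGT (a PU.1 consensus), each searched on both strands.

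Ctsd -15.7 kb, chr7:149589574-149589773: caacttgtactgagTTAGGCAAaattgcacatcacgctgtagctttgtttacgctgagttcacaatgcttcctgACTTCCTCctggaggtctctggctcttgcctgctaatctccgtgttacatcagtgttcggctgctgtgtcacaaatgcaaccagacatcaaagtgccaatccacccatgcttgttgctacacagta
Ctsd -11.4 kb, chr7:149585230-149585429: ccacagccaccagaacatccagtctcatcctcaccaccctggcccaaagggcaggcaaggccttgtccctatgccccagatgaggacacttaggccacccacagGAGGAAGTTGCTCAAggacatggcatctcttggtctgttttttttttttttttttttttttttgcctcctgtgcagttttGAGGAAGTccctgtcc
Ctsc -6.4 kb, chr7:95420134-95420333: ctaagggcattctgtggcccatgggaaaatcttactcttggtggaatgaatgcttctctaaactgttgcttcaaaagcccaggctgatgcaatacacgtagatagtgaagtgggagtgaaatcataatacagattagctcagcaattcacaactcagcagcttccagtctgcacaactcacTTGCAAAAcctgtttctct
Ctsc -0.7 kb, chr7:95425805-95426004: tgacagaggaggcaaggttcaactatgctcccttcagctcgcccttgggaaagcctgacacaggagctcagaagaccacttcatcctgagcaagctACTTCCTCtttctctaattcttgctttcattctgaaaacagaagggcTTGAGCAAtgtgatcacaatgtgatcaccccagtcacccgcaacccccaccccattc
Ctsc -0.2 kb, chr7:95426271-95426470: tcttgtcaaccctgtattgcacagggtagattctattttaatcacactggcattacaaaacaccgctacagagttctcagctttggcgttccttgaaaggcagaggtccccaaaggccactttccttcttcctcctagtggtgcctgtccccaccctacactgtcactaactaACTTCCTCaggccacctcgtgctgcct
Ctsb +9.4 kb, chr14:63750617-63750816: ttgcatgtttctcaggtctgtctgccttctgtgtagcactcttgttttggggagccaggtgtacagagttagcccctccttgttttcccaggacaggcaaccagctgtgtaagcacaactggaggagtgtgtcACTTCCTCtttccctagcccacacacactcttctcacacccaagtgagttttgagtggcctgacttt
Ctsh -11.1 kb, chr9:89937811-89938010: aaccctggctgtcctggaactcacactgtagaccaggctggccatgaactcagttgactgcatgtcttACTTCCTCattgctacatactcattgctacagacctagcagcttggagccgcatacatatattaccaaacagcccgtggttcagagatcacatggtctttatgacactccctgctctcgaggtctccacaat
Ctsk +0.4 kb, chr3:95303529-95303728: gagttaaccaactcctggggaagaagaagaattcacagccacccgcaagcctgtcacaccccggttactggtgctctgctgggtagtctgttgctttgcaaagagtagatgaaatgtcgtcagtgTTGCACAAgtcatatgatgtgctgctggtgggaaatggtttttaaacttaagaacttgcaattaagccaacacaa
Ctsa +2.2 kb, chr2:164660438-164660637: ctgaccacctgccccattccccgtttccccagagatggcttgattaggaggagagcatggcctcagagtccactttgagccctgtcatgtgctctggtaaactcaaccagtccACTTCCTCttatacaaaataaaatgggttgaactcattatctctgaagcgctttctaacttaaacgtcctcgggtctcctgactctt

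At Ctsd -11.4 kb a PU.1 match (chr7:149585334-149585341) and a C/EBP match (chr7:149585341-149585348) shared 1 base, and another PU.1 match lay at chr7:149585414-149585421. At Ctsd -15.7 kb the C/EBP match (chr7:149589588-149589595) and the PU.1 match (chr7:149589648-149589655) stood apart. Ctsc -0.7 kb held 1 match of each kind as well, at chr7:95425948-95425955 and chr7:95425901-95425908. These were the 3 sites of the 106 that held both.

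Of the 52 sites called in at least 1 C/EBPα library, 19 (36.5%) held TTGCNNAA, beside 29.5% of the C/EBPα sites and 16.3% of all sites in the genome. Of the 29 C/EBPβ sites 15 did (51.7%, and 41.5% in the genome), but of the 51 sites called for PU.1 and no C/EBP factor 1 did (1.96%, and 7.03%). GAGGAAGT was present at 19 of the 75 PU.1 sites (25.3%, and 23.1% in the genome) and at 10 of the 52 C/EBPα sites (19.2%, and 6.45%). A match describes the letters of the window and does not show which base a factor held.

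The promoters of the members, from 250 bp upstream to 50 bp downstream of the TSS, were searched for TCACGTG on both strands. This is the core bound by TFEB and its relatives, which control many lysosomal genes. Only the outermost annotated TSS of each gene was used, and further starts (Ctsa has 14 in all, Ctsh 7) were not searched. TCACGTG was present in 2 of the 9 promoters, Ctsb and Ctsd (22.2%), and in 4.13% of the 22225 promoters. In Ctsb the overlapping matches of both strands began 24 and 23 bp upstream of the TSS, and in Ctsd the match began 34 bp upstream.

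Over the time course 52 of the 106 sites were called for C/EBPα, 29 for C/EBPβ and 75 for PU.1, that is 49.1%, 27.4% and 70.8% of them. In the genome the shares were 37.7%, 14.3% and 74.7%. The count of 52 depends on depth and on the calling rule, with 45 C/EBPα sites under 1 rule for all libraries and 33 when the libraries were also thinned to the smallest of each factor. PU.1 alone was called at 51 sites (48.1%, and 59.3% in the genome), C/EBPα alone at 19 (17.9%, and 18.2%), and all 3 factors at 16 (15.1%, and 6.22%). Most sites lay away from promoters, with 12 within 1000 bp of a TSS of a member and 16 within 1000 bp of any protein-coding TSS. By feature, 60 lay in introns, 39 between genes, 4 in coding exons and 3 in UTRs. The shares of these features in the genome were not computed. Ctsk and Ctss are neighbours on chromosome 3, and the 6 sites that lay in both loci were counted once.

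C/EBPα was called at 3 of these sites at 0 hpi, at 14, 24 and 33 at 10, 30 and 60 min, and at 34, 24, 20 and 20 at 3, 12, 24 and 48 hpi. From 0 hpi to 60 min these were 2.83%, 13.2%, 22.6% and 31.1% of the 106 sites. All sites in the genome gave 1.81%, 8.69%, 15.3% and 23.5%. From 3 to 48 hpi the shares were 32.1%, 22.6%, 18.9% and 18.9%, beside 19.2%, 11.2%, 8.39% and 7.06% in the genome. In the genome C/EBPα was called most often at 60 min (23.5%). The 3 sites of 0 hpi, Ctsz -0.6 kb, Ctsz +1.2 kb and Lgmn -5.8 kb, were called in all 8 C/EBPα libraries. C/EBPβ was called at 2 sites at 0 hpi, Lgmn -5.8 kb and +43.6 kb, and then at 12, 6, 18 and 25. Its shares from 0 to 48 hpi were 1.89%, 11.3%, 5.66%, 17.0% and 23.6%, beside 0.494%, 5.34%, 1.73%, 5.03% and 11.8% in the genome. The C/EBPβ share was thus lower at 12 than at 3 hpi in the genome as well, and that library had the fewest reads (2903580). PU.1 was called at 26, 33, 57, 51 and 50 sites, that is 24.5%, 31.1%, 53.8%, 48.1% and 47.2%, beside 27.5%, 32.6%, 58.7%, 44.5% and 40.5% in the genome. The PU.1 share lay near that of the genome, below it up to 12 hpi and above it at 24 and 48 hpi. Each share comes from 1 library and also depends on how many sites were called for C/EBP factors. These differences were not tested. The 22 sites with PU.1 in every PU.1 library were 20.8% of the 106, beside 17.3%.

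At 0 hpi 2 of the 9 loci held a C/EBPα region, as did 11.0% of all genes, and at 48 hpi 8 of 9 did, all but Ctsa, as did 30.7%. For C/EBPβ 1 of 9 loci (Lgmn) held a region at 0 hpi, as did 3.05% of all genes, and 9 of 9 at 48 hpi, as did 39.8%. Each locus was counted by itself, for the members and for all genes. For both C/EBP factors the Ctsk locus counted at 48 hpi only through sites shared with the Ctss locus, nearer to the TSS of Ctss. PU.1 regions were at 8 of 9 loci both at 0 hpi (63.9% of all genes) and at 48 hpi (70.3%), and the exception was Ctsh both times. The edge decides that exception, since the nearest upstream PU.1 region had its centre 24 bp outside the Ctsh locus at 0 hpi and 13 bp outside at 48 hpi. The median locus was 61.9 kb long for the members and 55.5 kb for all genes.

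**Figure D1:**
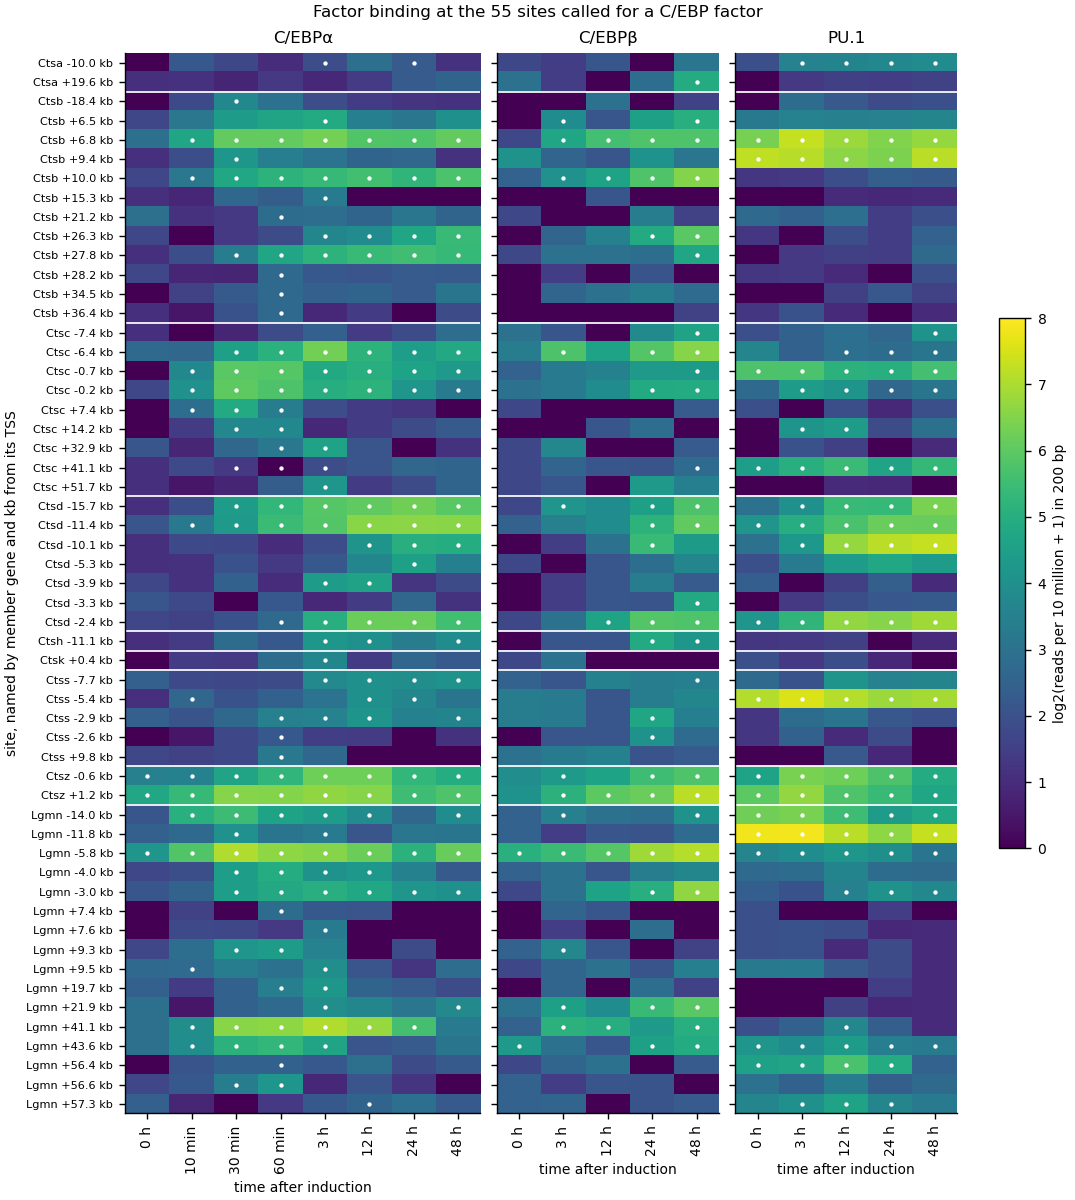
Normalised reads in 200 bp, as log2(value + 1) in colour, at the 55 sites called for C/EBPα or C/EBPβ (rows, by gene and kb from its TSS) in the 18 libraries (columns); white dots mark the libraries in which a site was called. Ctsz -0.6 kb, Ctsz +1.2 kb and Lgmn -5.8 kb carry dots in all 8 C/EBPα columns, Ctsd -15.7, -11.4, -10.1 and -2.4 kb carry C/EBPα dots at 48 h whereas Ctsd -5.3 and -3.9 kb do not, and Lgmn +41.1 kb has no C/EBPα dot at 48 h.

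Of the 52 C/EBPα sites, 32 (61.5%) were not called at 48 hpi, beside 81.3% in the genome. A single C/EBPα library gave the call at 17 of the 52 (32.7%, and 44.2% in the genome), 8 of these at 60 min (47.1%, and 35.9%), which had the second most reads. C/EBPα was highest at 3 hpi at 16 of its 52 sites (30.8%, and 26.9% in the genome) and highest at 48 hpi at 4 (7.69%, and 6.09%). C/EBPβ was highest at 48 hpi at 21 of its 29 sites (72.4%), near the 68.3% of the genome. Of the 29 sites 25 were called at 48 hpi, so the calling itself favours that time. At 48 hpi 18 of the 20 C/EBPα sites were also called for C/EBPβ (beside 72.4% of the C/EBPα sites of 48 hpi in the genome), and 12 for all 3 factors (beside 44.6%).

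With counts below 3 reads set to 3, 26 of the 106 sites were at least 2-fold higher in C/EBPα at 48 than at 0 hpi and 0 at least 2-fold lower, beside 10.1% and 1.39% of all sites in the genome. In C/EBPβ 23 were higher and 1 was lower, beside 10.6% and 0.351%. In PU.1 32 were higher and 5 lower, beside 16.2% and 13.0%. Counted over the sites called for the same factor, 22 of 52 were higher and 0 lower for C/EBPα (22.1% and 3.15% in the genome), 23 of 29 and 0 for C/EBPβ (70.9% and 0.907%), and 30 of 75 and 4 for PU.1 (21.2% and 16.5%). For C/EBPβ the share of its sites that were higher was thus near that of the genome. A site called only through its 48 hpi library was picked by its reads there, which favours a higher value at 48 hpi. At the loci 0 C/EBPα sites were called at 48 hpi alone. These counts thus describe the loci beside the genome and no more.

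**Figure D2:**
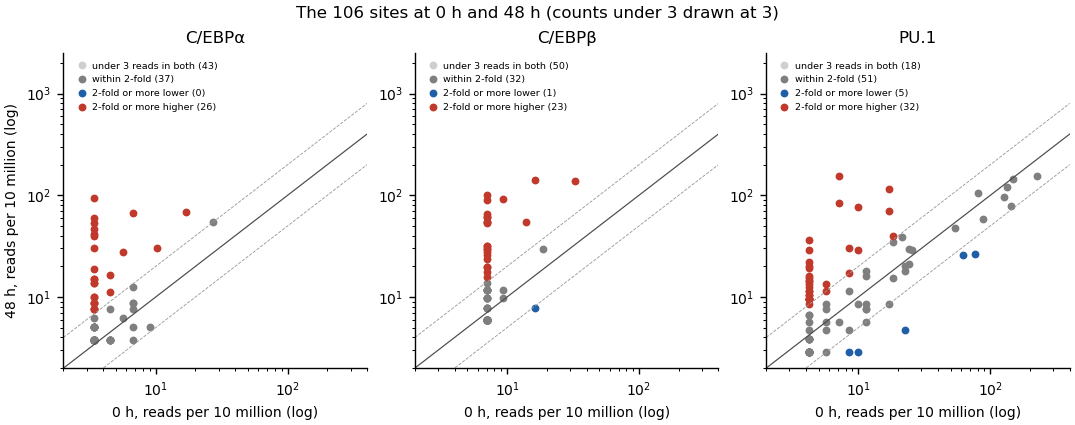
Normalised reads at 0 h (x axis, log) and at 48 h (y axis, log) at the 106 sites for each factor, with counts under 3 drawn at 3; the lines mark equal values and a 2-fold difference. In C/EBPα 26 sites lie at least 2-fold above equality and 0 below, in C/EBPβ 23 and 1, and in PU.1 32 and 5.

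Ctsd (chr7:149557053-149573943, minus strand) encodes cathepsin D, the main aspartic protease of lysosomes. Of its 12 sites, 4 had calls for all 3 factors, at -15.7, -11.4, -10.1 and -2.4 kb, all between genes. At each of them the 3 factors were more than 2-fold higher at 48 than at 0 hpi, with counts under 3 set to 3, and Ctsd -11.4 kb had the highest C/EBPα value of the 106 sites at 48 hpi.

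At Ctsd -15.7 kb C/EBPα normalised reads were 1.13, 2.81, 19.99, 38.4, 58.4, 65.3, 75.1 and 60.3 from 0 to 48 hpi, and it was called from 30 min on. C/EBPβ was at 2.33, 17.1, 13.8, 22.4 and 53.2. PU.1 was at 7.09, 15.2, 42.0, 39.6 and 83.1, was not called at 0 hpi and was called from 3 hpi on, the first time after 0 hpi for PU.1 here. All 3 factors were thus low before induction. The log2 ratio of 48 over 0 hpi was 5.74 for C/EBPα, 48 reads against 1, and the interval of the ratio began at 9.15-fold. For PU.1 it was 3.55, 87 reads against 5, which is 11.7-fold (4.84 to 37.0).

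Ctsd -11.4 kb, with the adjoining matches, was called for PU.1 already at 0 hpi. C/EBPα was at 3.38, 8.43, 19.2, 43.0, 57.5, 95.5, 96.2 and 94.3, with 74.1 to 118 as the interval at 48 hpi. C/EBPβ was at 4.67, 10.3, 13.8, 35.2 and 65.0. PU.1 was at 17.02, 30.4, 51.3, 71.4 and 69.8, and 48 over 0 hpi was 4.10-fold (2.21 to 8.29). The C/EBPα values of 12, 24 and 48 hpi lay within each other's intervals, while C/EBPβ was highest at 48 hpi. C/EBPα was 27.9-fold (9.18 to 138) of its 0 hpi value at 48 hpi.

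Ctsd -10.1 kb, Lgmn -11.8 kb and Ctsb +9.4 kb had the most PU.1 of the 106 sites at 48 hpi, at 156, 155 and 144, which lay within counting error of each other. PU.1 was at 7.09, 18.2, 105, 144 and 156, and 48 over 0 hpi was 22.0-fold (9.22 to 68.6). C/EBPα was at 1.13, 2.41, 2.31, 1.02, 2.70, 16.7, 31.6 and 30.2. Up to 3 hpi C/EBPα stayed at its 0 hpi level within a few reads, whereas at Ctsd -15.7 kb it had reached 58.4 by then. Ctsd -2.4 kb, chosen after its values were seen, lay between these courses, with C/EBPα at 5.63, 31.4 and 72.0 at 60 min, 3 hpi and 12 hpi, and PU.1 at 17.02, 36.5, 103, 92.5 and 116. Ctsd -3.9 kb and Ctsd -5.3 kb, chosen in the same way, were called for C/EBPα at 3 and 12 hpi and at 24 hpi, respectively, and at 48 hpi their C/EBPα values were 2.51 and 10.1.

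**Figure D3:**
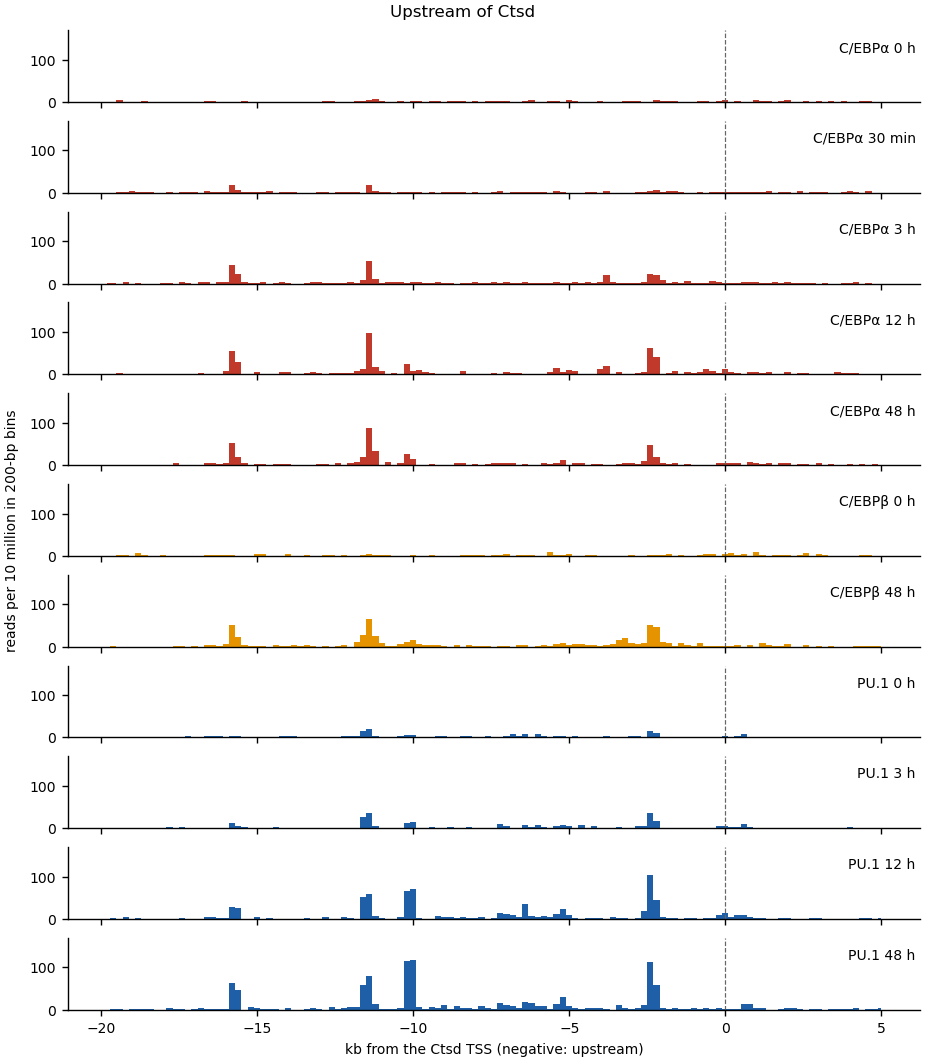
Reads per 10000000 in 200-bp bins from 20 kb upstream to 5 kb downstream of the Ctsd TSS (x axis, kb from the TSS, dashed line at 0) in 11 of the 18 libraries, all on 1 scale. C/EBPα stands near -15.7 and -11.4 kb at 30 min, and near -10.1 kb PU.1 is low at 0 h and tall at 12 h and 48 h.

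Ctsb (chr14:63741302-63764758, plus strand) encodes cathepsin B, a cysteine protease that cuts within proteins and from their C-terminal end. Of its 23 sites 12 were called for C/EBPα and 13 for PU.1, and both were called at Ctsb +6.8 kb and +9.4 kb, in introns of the gene. At Ctsb +6.8 kb PU.1 was at 80.8, 155, 111, 88.1 and 105, and 48 over 0 hpi was 1.30-fold (0.936 to 1.82), an interval that includes 1. C/EBPα was at 6.77, 25.7, 66.1, 67.0, 79.1, 55.3, 54.0 and 66.6 there, and 48 over 0 hpi was 9.85-fold (4.24 to 28.0). PU.1 was thus high before induction at this site, and C/EBPα was called from 10 min on. C/EBPβ was at 2.33, 25.7, 48.2, 54.4 and 55.2.

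At Ctsb +9.4 kb PU.1 was at 149, 139.9, 96.1, 85.5 and 144, and C/EBPα at 1.13, 2.81, 17.7, 9.72, 7.19, 5.02, 5.27 and 1.26, called at 30 min alone. C/EBPβ was at 16.3, 5.13, 3.44, 16.00 and 7.88, the 1 site of the 106 that was at least 2-fold lower in C/EBPβ, on 7 reads at 0 hpi and 4 at 48 hpi (0.482-fold (0.104 to 1.90), an interval that includes 1), and it was called there in none of its libraries. Ctsb +10.0, +26.3 and +27.8 kb, chosen after their values were seen, had the opposite makeup. At Ctsb +10.0 kb C/EBPα was at 2.26, 8.03, 26.9, 35.3, 40.4, 46.9, 36.9 and 52.8 and PU.1 between 1.42 and 4.41. At Ctsb +26.3 kb and +27.8 kb, in introns of the neighbour Fdft1, C/EBPα was at 41.5 and 40.2 at 48 hpi, and PU.1 at 4.78 and 5.73. All 3 of these sites held TTGCNNAA, and none held GAGGAAGT or a PU.1 call.

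Ctsc (chr7:95426595-95459398, plus strand) encodes cathepsin C (dipeptidyl peptidase I), which takes dipeptides off proteins and thereby activates serine proteases of granules. Both of its sites just upstream of the TSS had C/EBPα early. At Ctsc -0.7 kb C/EBPα was at 0, 12.4, 60.8, 57.8, 27.9, 31.8, 23.7 and 18.9, and PU.1 at 53.9, 51.7, 34.5, 31.7 and 47.8. C/EBPα was highest at 30 min, and with 0 reads at 0 hpi the 15 reads at 48 hpi were 5.57-fold above a floor of 3 reads in that library. With the counting error of both libraries the interval of the ratio began at 3.998-fold. PU.1 at 48 over 0 hpi was 0.887-fold (0.570 to 1.39), an interval that includes 1. At Ctsc -0.2 kb C/EBPα was at 2.26, 15.7, 63.8, 53.7, 30.5, 35.2, 17.1 and 8.80, and PU.1 at 5.67, 19.8, 16.8, 5.29 and 7.64.

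Ctsc -6.4 kb had a later course. C/EBPα was at 5.64, 5.22, 22.3, 33.8, 77.3, 35.2, 21.1 and 27.6, highest at 3 hpi. C/EBPβ was at 9.34, 53.0, 24.1, 57.6 and 92.6, and 48 over 0 hpi was 9.92-fold (3.63 to 37.9). In the genome C/EBPβ was highest at 48 hpi at 68.3% of its sites, and C/EBPα at 6.09% of its own. At Ctsc -6.4 kb too C/EBPβ, and not C/EBPα, was highest at 48 hpi. PU.1 was at 11.3, 4.56, 6.53, 6.17 and 7.64, and it was called at 12, 24 and 48 hpi but not at 0 hpi, where its value was highest.

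Ctsz (chr2:174252994-174264540, minus strand) encodes cathepsin Z (also named X), a carboxypeptidase found in macrophages. It was the member whose C/EBPα sites were both called before induction. At Ctsz +1.2 kb, in an intron, C/EBPα was at 27.1, 40.1, 91.5, 89.6, 101, 92.1, 44.8 and 54.0, and 48 over 0 hpi was 1.997-fold (1.18 to 3.44). PU.1 was at 62.4, 103, 54.1, 41.4 and 25.8, and its 48 hpi value was 0.413-fold (0.246 to 0.683) of that at 0 hpi. C/EBPβ was at 16.3, 34.2, 62.0, 70.4 and 142, and 48 over 0 hpi was 8.68-fold (4.004 to 22.4). C/EBPβ was highest and PU.1 lowest at 48 hpi at this site. At Ctsz -0.6 kb C/EBPα was at 10.1, 10.4, 24.6, 37.9, 74.6, 73.7, 38.2 and 30.2, and PU.1 at 24.1, 83.6, 74.7, 52.9 and 29.6, with both factors higher at 3 and 12 hpi than at either end.

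Lgmn (chr12:103632294-103678023, minus strand) encodes legumain, which cuts after asparagine and helps to process cathepsins to their mature chains. It had 23 sites, 16 of them called for C/EBPα, the most of any member. Lgmn -5.8 kb was the 1 site of the 106 that was called in all 18 libraries. C/EBPα was at 16.9, 56.2, 130.0, 98.8, 92.5, 72.0, 34.3 and 69.1, C/EBPβ at 32.7, 42.8, 58.5, 115 and 138, and PU.1 between 7.64 and 17.7. C/EBPα was highest at 30 min and C/EBPβ at 48 hpi.

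Lgmn -11.8 kb was the site with the most PU.1 at 0 hpi, at 227, 229.6, 143, 97.8 and 155. C/EBPα was between 3.35 and 15.4 there and was called at 30 min and 3 hpi. The following 2 sites were chosen after their values were seen. At Lgmn -14.0 kb PU.1 was at 76.6, 82.1, 44.8, 20.3 and 26.8 and C/EBPα at 3.38, 32.5, 43.8, 24.1, 20.7, 13.4, 5.27 and 13.8. PU.1 was lower at 24 and 48 hpi than at 0 and 3 hpi, while C/EBPα was highest at 30 min. The early C/EBPα regions of this Lgmn site were centred beside the 200 bp counted, and in the neighbouring 200-bp bin, 13.8 kb upstream, C/EBPα was at 2.26 at 0 hpi, 58.2 at 10 min, 74.6 at 30 min and 3.77 at 48 hpi. At Lgmn +41.1 kb, in an intron, C/EBPα was at 6.77, 14.4, 94.6, 99.8, 130.3, 107, 48.8 and 8.80, no longer called at 48 hpi. The ratio of 48 over 0 hpi, 1.30-fold (0.374 to 4.68), misses this course, whose highest value was at 3 hpi.

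Ctss (chr3:95330708-95360325, plus strand) encodes cathepsin S, which trims the invariant chain in antigen-presenting cells, and Ctsk (chr3:95303208-95313284, plus strand) encodes cathepsin K, the collagen-degrading enzyme of osteoclasts. Ctss had high PU.1 in every library at 3 sites. At Ctss -5.4 kb PU.1 was at 133, 189, 137, 111 and 121, 48 over 0 hpi being 0.910-fold (0.692 to 1.20). C/EBPα was between 1.13 and 15.1 at Ctss -5.4 kb and was called at 10 min, 12 hpi and 24 hpi. A site 2 bp downstream of the TSS, chosen after its values were seen, had PU.1 at 126, 134, 104, 66.1 and 96.5 and no C/EBP call. The C/EBPα site with the most reads at 48 hpi was Ctss -7.7 kb, at 4.51, 2.41, 2.31, 2.56, 12.6, 15.1, 14.5 and 16.3, called from 3 hpi on.

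At Ctsk +3.9 kb PU.1 was at 18.4, 22.8, 37.3, 14.1 and 34.4, and C/EBPα between 0 and 2.51. Ctsk +0.4 kb was called for C/EBPα at 3 hpi alone, at 0, 1.61, 1.54, 6.14, 11.7, 1.67, 5.27 and 3.77 over the time course. The C/EBP regions of 48 hpi in the Ctsk locus belonged to sites nearer to the TSS of Ctss.

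Ctsh (chr9:89948990-89970927, plus strand) encodes cathepsin H, an aminopeptidase, and had 4 sites, 1 with C/EBP and 3 with PU.1 calls. At Ctsh -11.1 kb C/EBPα was at 1.13, 1.61, 6.15, 3.58, 17.97, 15.1, 9.23 and 13.8 and C/EBPβ at 0, 3.42, 3.44, 28.8 and 17.7. PU.1 was between 0 and 1.87 and was not called, although the window held GAGGAAGT at chr9:89937879-89937886. At Ctsh +6.4 kb, which had the highest mean PU.1 of the 4 sites, PU.1 was at 4.25, 4.56, 8.40, 3.52 and 0. It was called there at 12 hpi alone. More PU.1 lay at the upstream edge of the locus, where none of the 4 sites was. In the 200-bp bin 19.9 kb upstream of the TSS, PU.1 was at 14.2, 36.5, 58.8, 39.6 and 8.599 from 0 to 48 hpi. This was the highest PU.1 bin of the locus in each PU.1 library.

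Ctsa (chr2:164658373-164666532, plus strand) encodes cathepsin A, a serine carboxypeptidase that also protects β-galactosidase and neuraminidase in the lysosome. At Ctsa +2.2 kb, in an intron, PU.1 was at 9.93, 24.3, 28.9, 58.2 and 76.4, and 48 over 0 hpi was 7.70-fold (3.57 to 19.8). PU.1 was called in all 5 libraries, and C/EBPα, between 0 and 5.02, in none. A site upstream of Ctsa lay in a UTR of Zswim1, 92 bp from a TSS of Zswim1. It was the 1 site of the Ctsa locus called for C/EBPα, at 3 and 24 hpi. C/EBPα was at 0, 3.61, 2.31, 1.02, 2.70, 6.70, 3.95 and 1.26 over the time course there, highest at 12 hpi, where it was not called. PU.1 was at 2.84, 10.6, 11.2, 12.3 and 13.4 and was called from 3 hpi on. Ctsa +19.6 kb, in a coding exon of Pltp and chosen after its values were seen, gave the C/EBPβ region of 48 hpi, at 29.6.

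**Figure D4:**
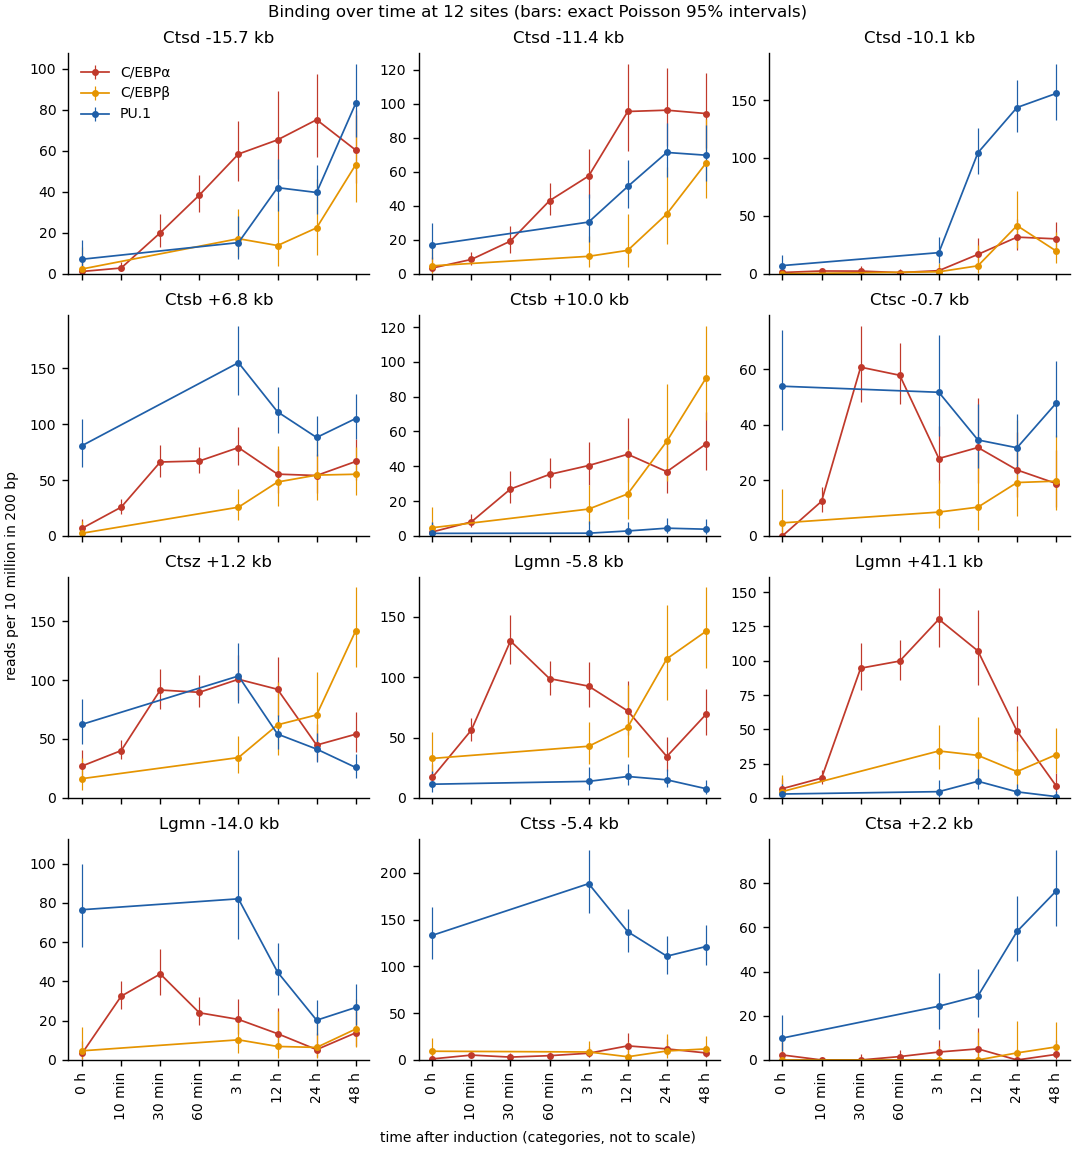
Normalised reads in 200 bp over time (x axis, categories and not to scale) at 12 sites for the 3 factors, with exact Poisson 95% intervals as bars. C/EBPα and PU.1 both stand higher at 48 h at the Ctsd sites, PU.1 stays between 111 and 189 at Ctss -5.4 kb, and C/EBPα at Lgmn +41.1 kb is 130.3 at 3 h and 8.80 at 48 h.

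Regions joined into 1 site lay more than 200 bp apart at 9 of the 106 sites, among them the Ctsa site in Zswim1, Ctsc -0.2, Ctsd -2.4, Lgmn -14.0, Lgmn -5.8 and Lgmn +41.1 kb (248 to 469 bp over the 9). There the 200 bp counted leave out part of what was called, so that a called library can have a low value.

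Whether C/EBPα went to places where PU.1 already was is a question the design allows. Of the 52 C/EBPα sites 20 had a PU.1 region of 0 hpi within 1000 bp (38.5%, and 30.6% in the genome), and of the 20 called at 48 hpi 10 did (50.0%, and 40.7%). With PU.1 called within 200 bp in place of 1000 bp, 14 of the 52 had it (26.9%, and 19.6% in the genome). Ctsb +10.0 kb, for example, counts among the sites with PU.1 through Ctsb +9.4 kb. At those 10 the median C/EBPα value was 3.38 at 0 hpi, 14.0 at 10 min, 52.3 at 30 min and 49.6 at 48 hpi. At the other 10 it was 2.82, 2.61, 5.77 and 22.0. Before induction both medians were low, but the sites already called for C/EBPα then were all among the 10 with PU.1. They were Ctsz -0.6 kb, Ctsz +1.2 kb and Lgmn -5.8 kb, at 10.1, 27.1 and 16.9 at 0 hpi. At 30 min the medians lay far apart. In the genome the medians at 30 min were 17.7 with PU.1 and 5.38 without, and at 48 hpi 18.9 and 17.6. Ctsd -15.7 kb, without PU.1 at 0 hpi, was at 19.99 at 30 min.

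**Figure D5:**
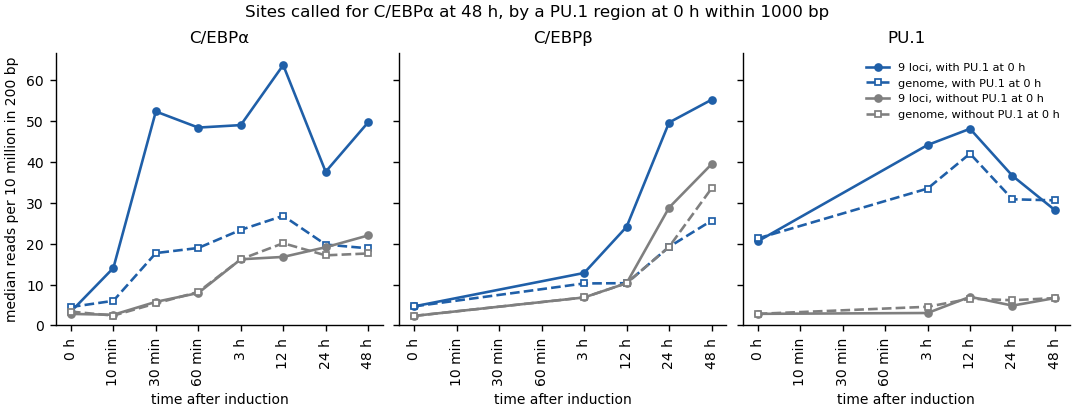
Median normalised reads in 200 bp over time at the sites called for C/EBPα at 48 h, with (blue) and without (grey) a PU.1 region of 0 h within 1000 bp, 10 sites each at the 9 loci (solid) and 3524 and 5143 in the genome (dashed). At 30 min the C/EBPα median at the loci is 52.3 with PU.1 and 5.77 without.

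PU.1 itself was called at 23 sites at both 0 and 48 hpi, at 27 at 48 hpi only and at 3 at 0 hpi only, that is 21.7%, 25.5% and 2.83% of the 106, beside 20.1%, 20.4% and 7.33% in the genome. The 3 were 11.5% of the sites of 0 hpi, beside 26.7% in the genome. Ctsz +2.6 kb, 1 of the 3, was still at 21.0 at 48 hpi, after 24.1 at 0 hpi. The call of 48 hpi fell at the neighbouring Ctsz +2.8 kb, 1 of the 27, just beyond the joining distance. Of the 27, 6 were also called for C/EBPα (22.2%, and 19.0% in the genome), among them Ctsd -15.7 kb and Ctsd -10.1 kb.

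Other genes of the pathway were read from lists of 36 genes. A C/EBPα region was at 8 of the 36 loci at 0 hpi and at 16 at 48 hpi, a C/EBPβ region at 2 and 16, and a PU.1 region at 28 and 32. These were 22.2% and 44.4% for C/EBPα, beside 11.0% and 30.7% of all genes, 5.56% and 44.4% for C/EBPβ, beside 3.05% and 39.8%, and 77.8% and 88.9% for PU.1, beside 63.9% and 70.3%. The counts of the single lists, of 3 to 10 genes each, describe those genes and no more. Of 7 protease inhibitors 1 had C/EBPα at 0 hpi and 4 at 48 hpi, among them Cst3 (cystatin C), with 0 and 2 regions. Of 6 other cathepsins 2 had it at both times, and Ctsl (cathepsin L) had no C/EBPα region at either. Of 5 other lysosomal proteases 1 had it at both times. Of 5 genes of sorting to the lysosome 1 had it at 0 hpi and 3 at 48 hpi, and of 10 other hydrolases 2 and 4. Of the 3 genes of transcription factors that drive lysosomal genes 1 had it at 0 hpi and 2 at 48 hpi, and Tfeb had 2 and 6 C/EBPα regions, and 8 and 11 PU.1 regions.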

How the data were processed

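ChIP-seq reads of 18 libraries (C/EBPα 8, C/EBPβ 5, PU.1 5) were used as deposited, 1 line per aligned read, from which read counts were taken. Before depositing them, the authors had mapped them to the mouse build mm9 (ELAND or Bowtie, no mismatch allowed), and had used HOMER for peaks. Their methods also name the removal of multiply mapped and duplicate reads, but 5 C/EBPα files (0, 3, 12, 24 and 48 hpi) still held repeated positions. Which aligner served which library, and all versions, are not given in the sources used here. No control library was used here and no normalization had been applied.

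Here 1 read was kept per position and strand, which removed at most 2.51% of a library. Regions were called genome-wide by the published rules of HOMER, with the tag thresholds of the study's peak table, 4-fold enrichment over the 10 kb around, and a Poisson p limit of 0.0001 against that local density. For calling, 5′ ends were moved inward according to the estimated fragment length of each library (91 to 246 bp). The calling window followed from each library's threshold, from 56 bp (C/EBPβ at 0 hpi) to 242 bp (PU.1 at 12 hpi). Regions within 200 bp were merged. For the values of sites, 5′ ends were moved 75 bp inward, and reads in 200 bp were scaled to 10000000 reads. Higher or lower means at least 2-fold, with counts under 3 set to 3. The calling was tested on simulated data. Python 3.11.15, numpy 2.4.6, scipy 1.17.1, pandas 2.3.3, numba 0.67.0 and matplotlib 3.10.9 were used. Promoter windows came from the outermost GENCODE vM1 start of each gene on mm9.

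Sites were described by rule: at each locus the site with the most C/EBPα at 48 hpi among sites called for it, the site with the highest mean PU.1, every site within 1000 bp of a TSS of the member that was called for a C/EBP factor, and the Ctsd site of the window the study shows. Sequences are those of such sites that hold a searched motif, 10 at most, of which 1 is not reported here. The members, lists and rules were chosen with earlier results of these data known. Other thresholds, windows, flanks, scalings and read sets were tried. The merging distance of 100 bp and the locus shares under other calls were added after seeing the data.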

Additional observations from a re-analysis of the deposited data

Results flagged for a closer look

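At Lgmn -14.0 kb PU.1 and C/EBPα went opposite ways between 0 and 48 hpi. The log2 ratio of 48 over 0 hpi was -1.52 for PU.1 (54 reads at 0 hpi, 28 at 48 hpi) and 2.03 for C/EBPα (3 and 11 reads). As ratios these were 0.349-fold (0.213 to 0.561) for PU.1 and 4.09-fold, with a wide interval (1.08 to 22.8), for C/EBPα. In the neighbouring 200-bp bin at Lgmn, where the C/EBPα regions of 10, 30 and 60 min were centred, C/EBPα was at 2.26 normalised reads at 0 hpi and 3.77 at 48 hpi. PU.1 of that bin is not given here, so the opposite course is described for the 200 bp counted only. Ctsz +1.2 kb had a like course, with C/EBPα at 1.997-fold (1.18 to 3.44) and PU.1 at 0.413-fold (0.246 to 0.683). It was not flagged because its C/EBPα ratio lay just under the 2-fold limit. The difference between the factors was not tested at either site, since each factor had 1 library at either time.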

How the results depend on the processing

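Over 11 settings and 15 results, 87 alternatives were computed. Of these, 77 stayed within 1.5 times the value given and 10 moved by more. Most results are counts, which have no direction that could reverse. Only the log2 ratios of the upstream Ctsd site could reverse, and they stayed at 5.74 to 5.99 for C/EBPα and 3.55 to 3.95 for PU.1. The limit of 1.5 times is wide for counts. With 400 bp around the centre, 36 sites were higher in C/EBPα (26), which lies within it. With tag thresholds 1.5 times higher, 1 site was called for C/EBPα at 0 hpi (3 as reported) and 1 for C/EBPβ at 0 hpi (2). With 10 kb on either side of the genes, 31 sites were called for PU.1 at 48 hpi (50), 17 were higher in PU.1 (32), 3 lower (5), and 13 C/EBPα sites had PU.1 at 0 hpi (20); this setting covers less of the genome. With a 3-fold limit, 16 sites were higher in C/EBPα (26), 16 higher in PU.1 (32) and 2 lower in PU.1 (5). When regions within 100 bp were merged, a setting chosen after seeing the data, 8 sites were lower in PU.1 (5), and the cause was not tested. The sites called in any C/EBPα library numbered 33 (52) when the libraries of a factor were thinned to its smallest under 1 calling rule, which alone gave 45; shares of the genome were not computed under that setting. No paired analysis was possible because each factor and time point had 1 deposited library, and for the same reason no replicate could be left out. At 1 to 3 reads in the 0 hpi library, ratios have wide intervals.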
